A study of Mus musculus with 12 samples.

Results

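Cd40, Pdpn, Mageb4, Rsph3b, Ifitm2, Tktl1 and Nup62cl were 7 genes chosen by their transcript levels, which were higher in mouse oocytes carrying a germline deletion of Eed than in controls at one or other of 2 stages. Genes of the Rhox and Xlr families were left aside in that choice. All 7 were found by symbol among the 55385 gene models of the table that holds the Eed libraries and among the 55401 of a second table, in which both groups lacked Ring1. All 7 could be tested in the first table, out of 14153 genes tested, and 6 in the second, out of 14941. Cd40, Pdpn, Mageb4 and Rsph3b were picked in growing oocytes, and Ifitm2, Tktl1 and Nup62cl in non-growing oocytes. The values that picked a gene are therefore given here as a description, and tests are given only for comparisons that did not pick it.

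Polycomb repressive complex 2 (PRC2) methylates lysine 27 of histone H3, and EED is the core subunit that binds this mark and is needed for the enzyme's activity. Polycomb repressive complex 1 (PRC1), whose catalytic subunits are RING1 and RNF2, ubiquitinates histone H2A and compacts chromatin. Both complexes are known for keeping developmental and lineage genes low in cells that do not use them, and oocytes enter their growth phase in the first days after birth with both present.

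RNA of oocytes isolated from the ovary was sequenced in 12 libraries, 2 per group in 6 groups. PRC2 controls were EedF/+; Ddx4-Cre and PRC2 conditional knockouts (cKO) EedF/-; Ddx4-Cre, each as non-growing oocytes of postnatal day 6 and growing oocytes of postnatal day 7, so stage and age differed together. PRC1 controls were labelled Ring1-/-; Rnf2F/+; Ddx4-Cre and the PRC1 cKO Ring1-/-; Ring1F/-; Ddx4-Cre, both as growing oocytes of postnatal day 7. Every group carried Ddx4-Cre, which recombines in germ cells, each control kept 1 intact copy of the floxed gene, and both PRC1 groups lacked Ring1 throughout the animal. Separate animals are not named in the labels for any pair of libraries, so the spread between them may be technical. The label of the PRC1 cKO gives the floxed allele as Ring1, the gene already deleted.

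Eed fell from 89.7 ± 1.15 to 11.2 ± 1.24 TPM (transcripts scaled to a fixed total per library; mean ± SD, n = 2 libraries a group, as throughout) in non-growing oocytes and from 61.4 ± 1.29 to 9.87 ± 0.325 TPM in growing oocytes. The limma adjusted p of these falls was 0.000252 and 0.0014. In the PRC1 controls Ring1 was listed at 0 in each library, against 0.01 and 0.02 TPM for libraries bearing the PRC1 cKO label. Rnf2 was at 59.2 and 53.8 TPM in PRC1 controls and at 87.8 and 61.4 TPM in libraries bearing the PRC1 cKO label, so a gene total gave no sign of a deletion there, and it cannot show the loss of a single floxed exon. All 13 oocyte markers examined were at 1 TPM or more in each of the 12 libraries. Protein-coding nuclear genes took 84.0 to 86.4% of the TPM in non-growing libraries, 58.5 to 61.9% in growing libraries of the Eed experiment, 60.3 to 63.1% in PRC1 controls and 70.5 to 75.2% in libraries bearing the PRC1 cKO label.

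The stretch just upstream of the gene body is shown for the 4 genes whose promoter window reaches beyond the annotated gene body, because these 4 differ widely in the CG dinucleotides (capitals) that Polycomb-bound promoters are known to be rich in. All sequences read 5′ to 3′ on the gene's strand and come from RefSeq promoter windows on GRCm38.p6, Pdpn from chr4:143299565-143299814 on the minus strand, Ifitm2 from chr7:140955988-140956211 on the minus strand, Tktl1 from chrX:74177009-74177258 on the plus strand and Nup62cl from chrX:140062713-140062818 on the minus strand.
Pdpn: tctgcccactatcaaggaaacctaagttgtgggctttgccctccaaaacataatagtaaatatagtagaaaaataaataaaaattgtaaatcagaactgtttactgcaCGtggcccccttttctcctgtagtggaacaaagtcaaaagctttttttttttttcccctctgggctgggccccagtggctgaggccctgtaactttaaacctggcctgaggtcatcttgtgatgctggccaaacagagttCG
Ifitm2: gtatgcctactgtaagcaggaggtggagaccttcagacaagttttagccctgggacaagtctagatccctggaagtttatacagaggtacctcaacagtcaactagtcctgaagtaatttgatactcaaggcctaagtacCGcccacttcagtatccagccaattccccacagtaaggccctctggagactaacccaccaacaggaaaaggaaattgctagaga
Tktl1: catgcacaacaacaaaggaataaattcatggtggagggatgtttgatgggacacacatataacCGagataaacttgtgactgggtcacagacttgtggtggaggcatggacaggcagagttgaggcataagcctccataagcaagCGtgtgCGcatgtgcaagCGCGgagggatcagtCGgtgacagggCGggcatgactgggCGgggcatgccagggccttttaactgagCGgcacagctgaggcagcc
Nup62cl: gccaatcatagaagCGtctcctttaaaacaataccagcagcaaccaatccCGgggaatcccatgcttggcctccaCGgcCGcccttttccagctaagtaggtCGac
Over the whole window of 300 bases, 250 before and 50 after the RefSeq start, 6 of the 7 genes had an entry. Ifitm2 held 4 CG dinucleotides, Pdpn 7, Mageb4 11, Tktl1 13, Nup62cl 21 and Rsph3b 25. Across all 32851 windows of the table the median was 7 and the quartiles were 3 and 20, so Ifitm2 and Pdpn sat at or below the median and Nup62cl and Rsph3b above the upper quartile. Pdpn's window held the E-box CACGTG, found on either strand in 7.15% of all windows, and GCGGGA, the core letters of an E2F site, found in 19.98%. GCGGGA was also in the Nup62cl window. Neither motif was found in the windows of Mageb4, Rsph3b, Ifitm2 and Tktl1. A match of one may share its end base with a match of the other.

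Each gene is protein coding in the files, whose coordinates are those of GRCm38. Cd40 (ENSMUSG00000017652) lies at chr2:165055627-165072948, Pdpn (ENSMUSG00000028583) at chr4:143267431-143299564, Rsph3b (ENSMUSG00000023806) at chr17:6904413-6948682 and Ifitm2 (ENSMUSG00000060591) at chr7:140954837-140955987. Mageb4 (ENSMUSG00000035427) at chrX:86250254-86305093, Tktl1 (ENSMUSG00000031397) at chrX:74177259-74208500 and Nup62cl (ENSMUSG00000072944) at chrX:140006805-140062712 are X-linked. Of the transcript stretches of 50 bases, 69.2% in Rsph3b, 50.1% in Mageb4 and 48.5% in Ifitm2 also occur in other genes, against 0.501% in Cd40, 0.0552% in Pdpn and 0 in Tktl1 and Nup62cl. The sources used here do not say how reads matching several genes were assigned, so levels of the first 3 are uncertain.

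Cell surface receptors come first. Cd40 encodes a receptor of the TNF receptor superfamily that B cells, dendritic cells and macrophages use to receive help from T cells. In growing oocytes controls held 0.42 and 0.15 TPM of Cd40 and PRC2 cKO 5.47 and 5.64 TPM. Cd40 was under 1 TPM in every other library of the study, so the 2 growing PRC2 cKO libraries stood alone. The ratio of means was 19.5, and the log2 difference, on the log2(TPM + 1) scale used throughout, was 2.36 (SE 0.17).

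Away from growing PRC2 cKO oocytes, Cd40 was near 0. Non-growing controls held 0.1 and 0.06 TPM and non-growing PRC2 cKO 0.03 and 0.14 TPM, ranges that overlapped, with a log2 difference of 0.01 (SE 0.17; limma adjusted p = 0.999). A gene needed 1 TPM in at least 2 libraries to be tested, and Cd40 met this only through the growing PRC2 cKO libraries that picked it. At levels so near 0, this missing call says little. In the second table Cd40 was at 0.35 and 0.62 TPM in PRC1 controls and 0.5 and 0.67 TPM in libraries bearing the PRC1 cKO label, which overlapped too. It was not tested there because fewer than 2 libraries reached 1 TPM. The change of Cd40 with PRC2 cKO was larger in growing than in non-growing oocytes by 2.35 (SE 0.24) on the log2 scale, a difference of which 1 part picked the gene.

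Pdpn encodes podoplanin, a mucin-type membrane glycoprotein of lymphatic endothelium, mesothelium and other epithelia that binds the platelet receptor CLEC-2. Growing controls held 19.1 and 16.9 TPM and growing PRC2 cKO 38.3 and 42.8 TPM, with no overlap, a ratio of 2.26 and a log2 difference of 1.13 (SE 0.12). Non-growing controls held 38.8 and 40.2 TPM and non-growing PRC2 cKO 50.5 and 46.5 TPM. Both cKO libraries lay above both controls there as well, as they did for 20.3% of all genes tested, but the log2 difference of 0.29 (SE 0.12) did not pass (limma adjusted p = 0.298). Growing control oocytes thus held less Pdpn than any other PRC2 group, and the growing PRC2 cKO libraries were at the level of non-growing controls.

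**Figure D1:**
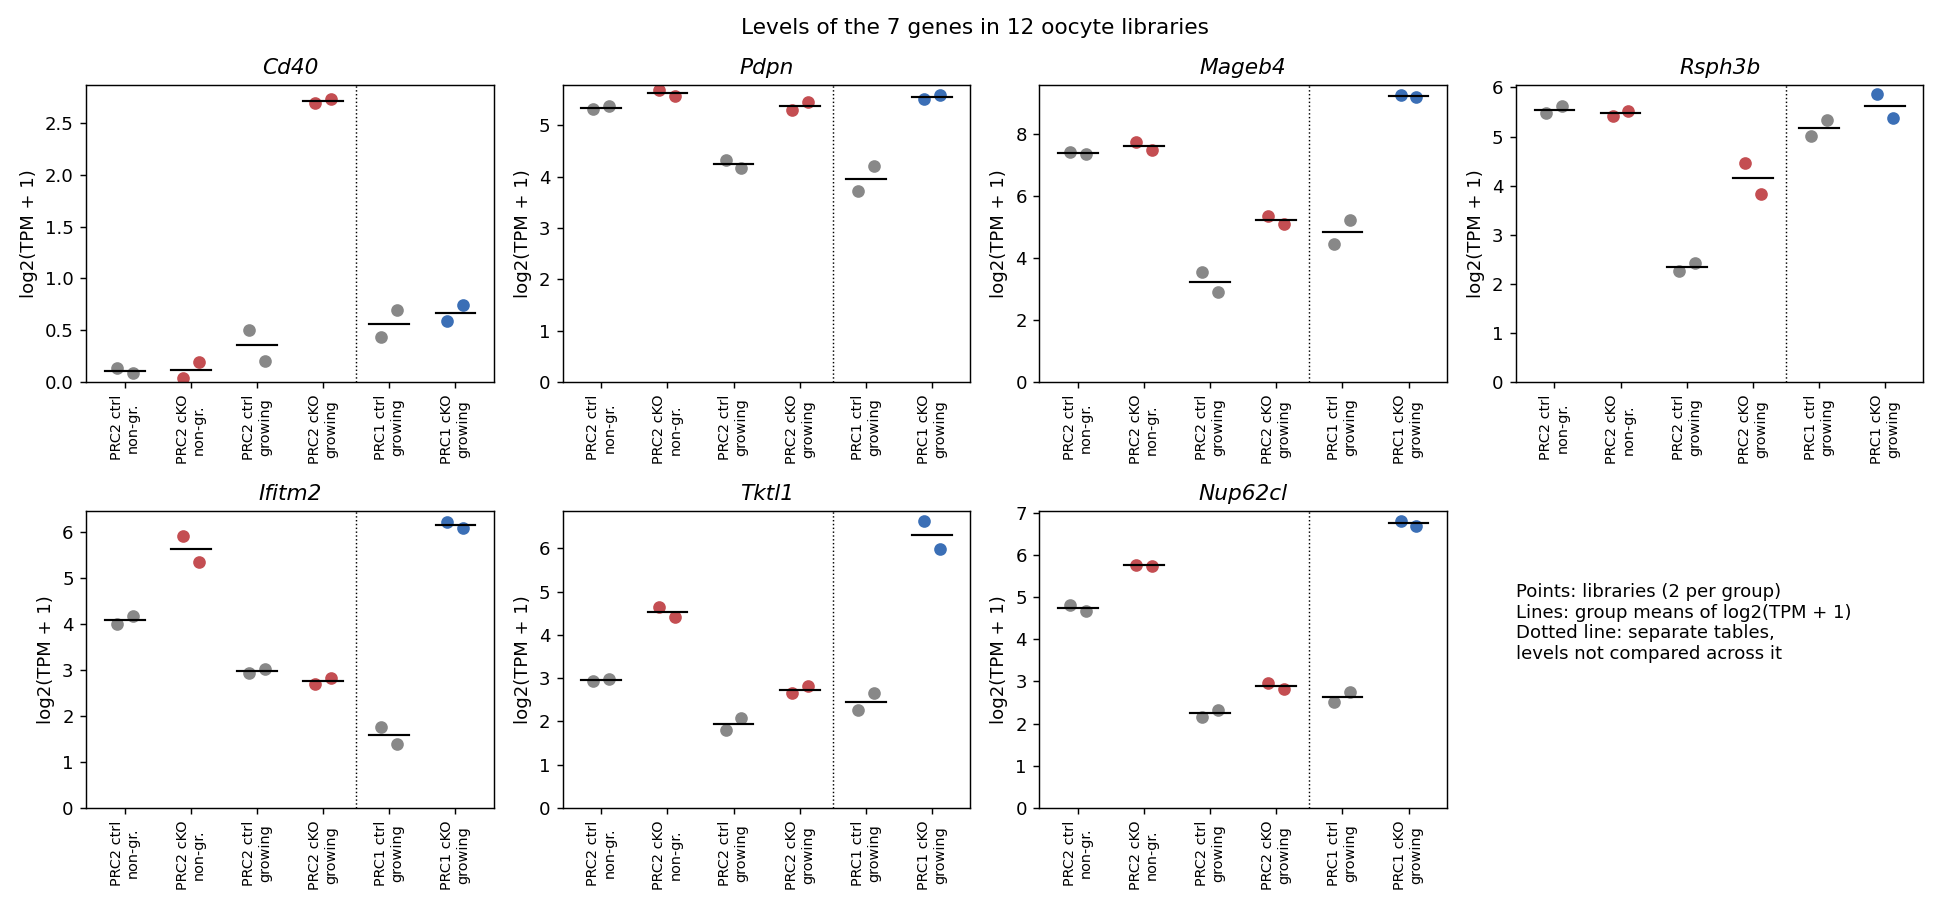
Levels of the 7 genes in each of the 12 libraries, on the log2(TPM + 1) scale (y axis), by group (x axis); points are libraries and lines are means of the 2 libraries. In the picking stage both PRC2 cKO libraries lie above both controls for each gene, and in the second table the points of Mageb4, Ifitm2, Tktl1 and Nup62cl labelled PRC1 cKO lie far above their controls.

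Mageb4 is an X-linked cancer-testis gene of the MAGE family, expressed mainly in germ cells. Growing controls held 10.6 and 6.53 TPM and growing PRC2 cKO 39.9 and 33.4 TPM, a ratio of 4.27 and a log2 difference of 2.00 (SE 0.21). In non-growing oocytes it was far more abundant, at 168 and 163 TPM in controls and 211 and 178 TPM in PRC2 cKO. Both cKO libraries lay above both controls, as for 20.3% of all genes tested, with a log2 difference of only 0.23 (SE 0.21; limma adjusted p = 0.607). Mageb10-ps, an unprocessed pseudogene on the same strand within the Mageb4 gene body, shares 50.1% of Mageb4's stretches and was the neighbour with the most similar values. It went from 13.6 and 8.63 TPM in growing controls to 39.1 and 36.7 TPM in growing PRC2 cKO, and the sum of both genes from 19.7 ± 6.44 to 74.5 ± 6.28 TPM, so the pair was higher however reads were split between them.

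Rsph3b encodes a radial spoke head protein, a part of the axoneme of motile cilia and sperm flagella. Growing controls held 3.81 and 4.35 TPM and growing PRC2 cKO 21.2 and 13.2 TPM, with no overlap, a ratio of 4.22 and a log2 difference of 1.81 (SE 0.21). In non-growing oocytes controls held 43.4 and 48.1 TPM and PRC2 cKO 42.1 and 45.2 TPM, which overlapped (log2 difference -0.07, SE 0.21, limma adjusted p = 0.901). Its near-identical paralog Rsph3a, which shares 54.3% of its stretches, was at 119.6 and 147.9 TPM in growing controls and 143 and 121.5 TPM in growing PRC2 cKO. Summed over both paralogs, the growing controls held 123 and 152 TPM and the growing PRC2 cKO 164 and 135 TPM. These sums overlapped, so the Rsph3b difference cannot be told apart from a shift of shared reads between the paralogs. A list of 4 multiciliated cell markers summed to 64.6 to 67.8 TPM in growing controls and to 61.7 and 132.5 TPM in growing PRC2 cKO. Nearly all of it was Ccno, at 61.6 and 132.5 TPM in those cKO libraries, while Foxj1 was listed at 0 and Mcidas and Dnah5 were at no more than 0.07 TPM, and the part of such cells in the Rsph3b value was not tested.

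Ifitm2 encodes an interferon-induced transmembrane protein that restricts virus entry, and its relatives Ifitm1 and Ifitm3 are known from early germ cells. Non-growing controls held 14.99 and 16.9 TPM of it and non-growing PRC2 cKO 59.2 and 39.7 TPM, with no overlap, a ratio of 3.11 and a log2 difference of 1.55 (SE 0.20). In growing oocytes the order was the opposite, with 6.66 and 7.13 TPM in controls and 5.49 and 6.10 TPM in PRC2 cKO. Both growing cKO libraries lay below both controls, as for 13% of all genes tested, with a log2 difference of -0.22 (SE 0.20) that did not pass (limma adjusted p = 0.699). Gm45717, which shares 36.1% of the stretches of Ifitm2, was listed at 0 in every library.

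Tktl1, an X-linked transketolase-like gene related to the enzyme of the non-oxidative pentose phosphate pathway, was at 6.66 and 6.93 TPM in non-growing controls and 23.8 and 20.2 TPM in non-growing PRC2 cKO. The groups did not overlap, the ratio of means was 3.24 and the log2 difference 1.56 (SE 0.17). Growing controls held 2.47 and 3.21 TPM and growing PRC2 cKO 5.28 and 6.04 TPM. Both cKO libraries were again the higher ones, as for 23.5% of all genes tested, and the log2 difference of 0.80 (SE 0.17) did not pass (limma adjusted p = 0.237).

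Nup62cl, an X-linked gene named for its similarity to the central channel nucleoporin NUP62, was at 27.0 and 24.3 TPM in non-growing controls and 53.4 and 52.4 TPM in non-growing PRC2 cKO. These groups did not overlap, with a ratio of 2.06 and a log2 difference of 1.02 (SE 0.13). Its growing controls held 3.46 and 4.03 TPM and the growing PRC2 cKO 6.73 and 6.10 TPM. Both cKO libraries were the higher ones there too, as for 23.5% of all genes tested, and the log2 difference of 0.65 (SE 0.13) did not pass (limma adjusted p = 0.222).

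At the stage that did not pick it, none of the 7 genes passed by limma. At an unadjusted p of 0.05, 1 of the 4 in non-growing oocytes (Pdpn) and 2 of the 3 in growing oocytes (Tktl1 and Nup62cl) did, against 16.4% and 9.94% of all genes. Groups of both stages shared an estimate of the spread, so these p values were not free of the libraries that did the picking. Cd40, among the 4 in non-growing oocytes, was near 0 there and was tested only through the growing PRC2 cKO libraries that picked it. These counts are therefore a description only. The limma share of genes called higher was 0.113% in non-growing oocytes (16 genes) and 0.12% in growing oocytes (17 genes), so a call was rare for any gene, and missing one does not show that a gene was the same in both groups. Across all genes the median log2 difference was -0.09 in non-growing and 0.08 in growing oocytes. At the edge of the picking threshold, an adjusted p of 0.05, Nup62cl was the last of the genes inside in non-growing oocytes and Aig1 the first named gene outside, at a log2 difference of 1.31 (SE 0.17). In growing oocytes Rsph3b was the last inside and Slc14a1 the first outside, at 0.89 (SE 0.11).

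**Figure D2:**
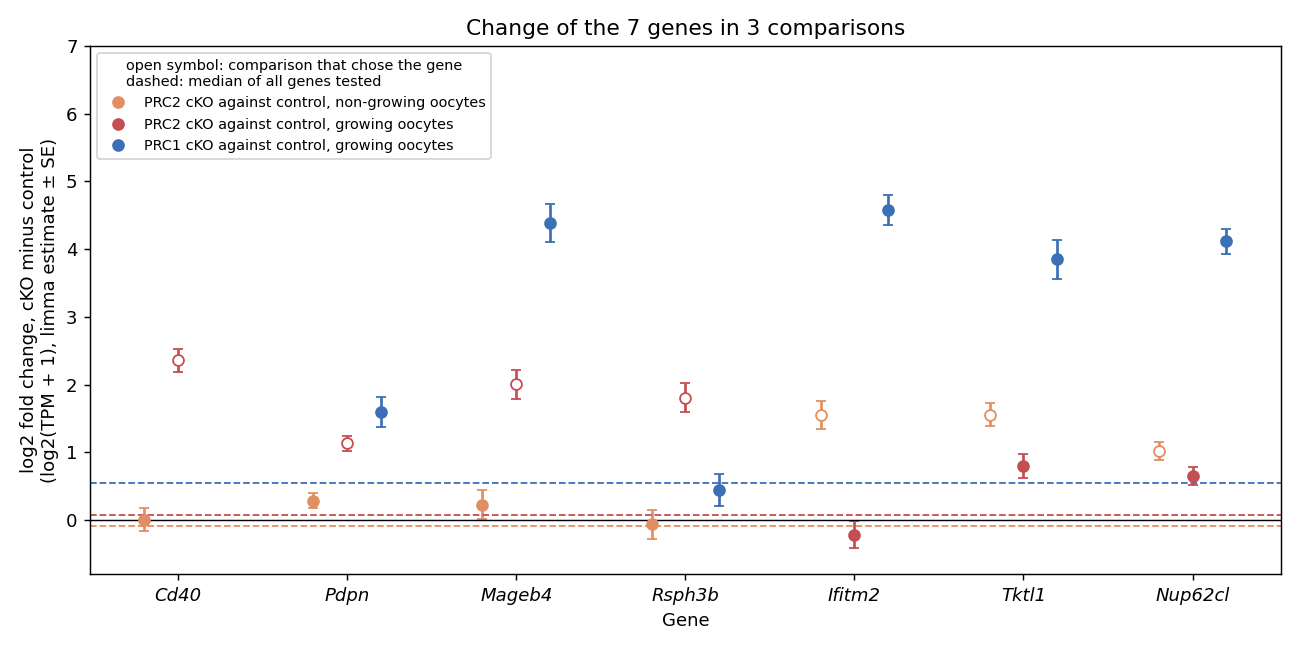
Log2 differences, cKO minus control (y axis, log2(TPM + 1), limma estimate ± SE), of each gene (x axis) in 3 comparisons, with open symbols where the comparison picked the gene and dashed lines at the median of all genes tested. The filled PRC2 points lie between -0.22 and 0.80, and 4 PRC1 points lie between 3.85 and 4.58; Cd40 has no PRC1 point.

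The label of de-repression was set against the control levels. Only Cd40 was under 1 TPM in the controls of the stage that picked it. The other 6 were already transcribed there, from 4.08 ± 0.382 TPM for Rsph3b to 25.7 ± 1.93 TPM for Nup62cl. For these 6 genes PRC2 cKO oocytes held more of a transcript that controls also held, and for Pdpn, Mageb4 and Rsph3b controls of the earlier stage held about as much or more.

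Levels were also set side by side between stages, as a description, since these values share the libraries that did the picking. From non-growing to growing controls the ratio of means was 0.0519 for Mageb4, 0.0892 for Rsph3b, 0.146 for Nup62cl, 0.418 for Tktl1, 0.433 for Ifitm2 and 0.455 for Pdpn, against a median log2 difference of -0.67 over all genes. In PRC2 cKO the same ratios were 0.188 for Mageb4, 0.395 for Rsph3b, 0.121 for Nup62cl, 0.257 for Tktl1, 0.117 for Ifitm2 and 0.836 for Pdpn. The 3 of these 6 picked in growing oocytes had a smaller drop in PRC2 cKO than in controls, and the 3 picked in non-growing oocytes a larger drop, as their choice would have it. Mageb4 and Rsph3b in growing PRC2 cKO were still below their non-growing levels in every library. Cd40 went the other way, with a ratio of 3.56 in controls, between levels that were all under 1 TPM, and of 65.4 in PRC2 cKO.

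The effect of PRC2 cKO in growing minus that in non-growing oocytes was 1.87 (SE 0.30) for Rsph3b, 1.77 (SE 0.30) for Mageb4 and 0.84 (SE 0.16) for Pdpn on the log2 scale. It was -0.37 (SE 0.19) for Nup62cl, -0.76 (SE 0.24) for Tktl1 and -1.77 (SE 0.28) for Ifitm2. Its sign followed the stage that picked the gene in each case.

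The PRC1 libraries were not used in the rule that picked the genes, although the list was drawn up with earlier results of these data known. The ratio of libraries bearing the PRC1 cKO label to PRC1 controls was 35.1 for Ifitm2, 20.9 for Mageb4, 20.4 for Nup62cl, 17.7 for Tktl1, 3.11 for Pdpn and 1.38 for Rsph3b. The first 5 rose and Rsph3b did not pass. So 5 of the 6 genes tested were called higher, where 41.3% of all 14941 genes were called higher and 6.45% lower. All 6 were at 1 TPM or more in both controls, and among the 11886 genes for which that held 32.2% were called higher. Other genes called higher in PRC2 cKO gave similar counts, with 7 of 8 tested non-growing risers outside the 7 genes and 5 of 8 growing ones called higher in the second table. A further growing one, 1 of the 8, was called lower. Of these risers 6 non-growing and 3 growing ones were X-linked, and 62.2% of tested X-linked genes were called higher there. Both sets hold Rhox and Xlr genes, some of them the same, and the growing set holds Mageb10-ps, which shares stretches with Mageb4.

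Ifitm2 went from 2.37 and 1.63 TPM in PRC1 controls to 73.4 and 67.1 TPM in libraries bearing the PRC1 cKO label, a log2 difference of 4.58 (SE 0.22; limma adjusted p = 0.00208). It ranked 41 from the highest among the 14941 genes tested. Mageb4 went from 20.8 and 36.7 TPM to 612 and 586 TPM, with a log2 difference of 4.39 (SE 0.28; limma adjusted p = 0.00208) and rank 58 of the same genes. The groups did not overlap in either gene, with the libraries bearing the PRC1 cKO label higher, as for 62.3% of all genes tested. The sum of Mageb4 with Mageb10-ps went from 58.5 ± 20.6 to 1096 ± 18.4 TPM.

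Nup62cl went from 4.70 and 5.76 TPM to 111.8 and 101.6 TPM in libraries bearing the PRC1 cKO label. Its log2 difference was 4.12 (SE 0.18; limma adjusted p = 0.00208), rank 80. For Tktl1 the levels were 3.77 and 5.29 TPM against 97.9 and 62.3 TPM, a log2 difference of 3.85 (SE 0.29; limma adjusted p = 0.00219) and rank 107. The libraries did not overlap in either gene, again in the direction seen for 62.3% of all genes tested. Both genes had 0 stretches shared with other genes.

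Pdpn rose less, from 12.2 and 17.4 TPM in PRC1 controls to 44.7 and 47.3 TPM, a log2 difference of 1.60 (SE 0.22; limma adjusted p = 0.00536) and rank 1818. Rsph3b was at 31.5 and 39.5 TPM in PRC1 controls and 57.6 and 40.4 TPM in libraries bearing the PRC1 cKO label. Both of these lay above both controls, as for 62.3% of all genes, and its log2 difference of 0.44 (SE 0.23; limma adjusted p = 0.175) was below the median of all genes, 0.55. With trimmed-mean scaling, which moved that median to -0.08, the Rsph3b difference was -0.28.

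The 5 calls held in all 12 alternatives run for each gene, among them 4 that left out 1 library, with adjusted p from 0.000683 to 0.0384 over the 5 genes. Other scalings did change the split over all genes, from 6176 higher and 964 lower to 3164 higher and 3509 lower with trimmed-mean scaling and to 2722 higher and 2636 lower with quantile normalization. Relative to the median of all genes under the 3 other scalings, Ifitm2 was 4.03 to 4.16 higher on the log2 scale, Mageb4 3.74 to 4.09, Nup62cl 3.51 to 3.67, Tktl1 3.26 to 3.40 and Pdpn 0.963 to 1.203. Mageb4, picked in growing oocytes, thus ranked in the second table with the 3 genes picked in non-growing oocytes.

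**Figure D3:**
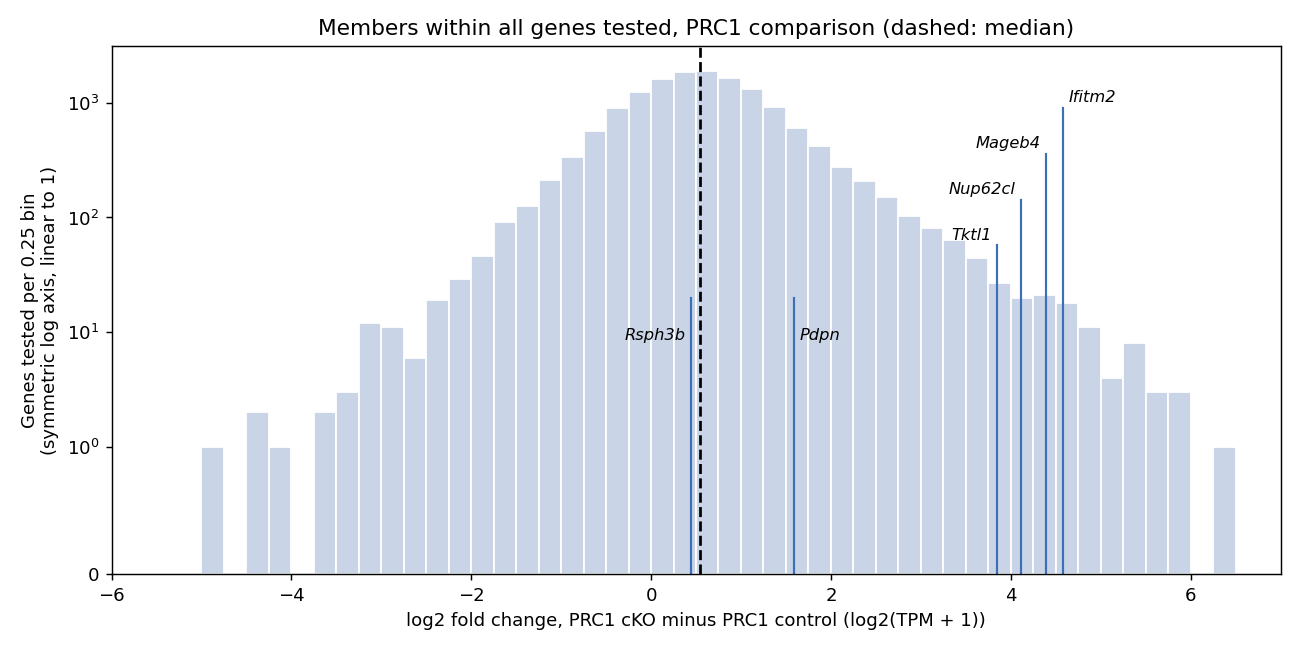
Number of genes tested (y axis, symmetric log scale) by log2 difference, PRC1 cKO minus PRC1 control, in bins of 0.25 (x axis), with the 6 tested members as blue lines and the median of all genes, 0.55, as a dashed line. Ifitm2, Mageb4, Nup62cl and Tktl1 lie in the upper tail at 3.85 to 4.58, Pdpn at 1.60 lies on the upper shoulder, and Rsph3b at 0.44 lies in the bulk.

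Oocyte markers moved in the same libraries. Of 13 oocyte markers, 4 rose and 5 fell in libraries bearing the PRC1 cKO label, where 41.3% of all genes rose and 6.45% fell. Bmp15, an oocyte growth factor, fell from 401 ± 65.9 to 48.2 ± 36.9 TPM (limma adjusted p = 0.00923) and Gdf9, its partner, from 5044 to 1889 TPM (limma adjusted p = 0.00552), while Sohlh1, a transcription factor of early follicles, rose from 123.5 to 792 TPM (limma adjusted p = 0.00505). In the Eed experiment controls, Bmp15 was at 13.9 and 14.3 TPM in non-growing oocytes and 363 and 460 TPM in growing oocytes, and Sohlh1 at 334 and 359 TPM against 65.3 and 35.0 TPM. Gdf9 was at 616.3 and 3862 TPM in the same non-growing and growing controls. Zp3 also fell in PRC1, from 6436 to 4526 TPM (limma adjusted p = 0.029), and was at 2286 and 6409 TPM in those controls. Ooep and Nlrp5, which fell too, were closer between the stages. Ooep went from 509 to 257 TPM in PRC1 and was at 620.5 and 528 TPM in non-growing and growing controls. Nlrp5 went from 2544 to 1833 TPM in PRC1 and was at 2781 and 3037 TPM in those controls. Mageb4, Nup62cl, Tktl1, Ifitm2 and Pdpn were also higher in non-growing than in growing controls. So was Rsph3b, at 45.7 against 4.08 TPM, which did not pass in PRC1. That direction was common, since the median log2 difference of growing minus non-growing controls was -0.67 over all genes. The difference was -1.03 for Tktl1, -1.10 for Ifitm2 and Pdpn, -2.49 for Nup62cl, -3.20 for Rsph3b and -4.15 for Mageb4. The part of oocyte stage in the PRC1 values of these genes was not tested.

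Markers of other cells moved in the same libraries. The summed level of 14 immune markers was 19.2 to 20.1 TPM in PRC1 controls and 145 to 173 TPM in libraries bearing the PRC1 cKO label, of which H2-Aa, a class II histocompatibility gene, made up 108 and 87.3 TPM. The leukocyte gene Ptprc was at no more than 0.16 TPM and the myeloid gene Tyrobp at no more than 0.13 TPM there. The 10 granulosa markers summed to 9.85 to 12.6 TPM in PRC1 controls and 26.5 to 39.4 TPM in libraries bearing the PRC1 cKO label, with Foxl2 at no more than 0.19 TPM and Amh at no more than 0.24 TPM. The granulosa genes that rose were Inha, from 1.64 to 14.1 TPM, Inhba, from 0.165 to 2.93 TPM, Kitl, from 1.04 to 6.37 TPM, and Cyp19a1, from 0.775 to 2.20 TPM, with limma adjusted p from 0.00468 to 0.0171. None of these 4 was at 1 TPM or more in both controls. Nr5a2 was the only tested granulosa marker that was, and it went from 6.51 to 3.905 TPM without being called lower. Lymphatic endothelium and mesothelium are known sources of Pdpn. The 5 lymphatic endothelial markers went from 12.5 and 14.5 TPM in PRC1 controls to 29.9 and 18.8 TPM, and of the 2 tested 0 were called higher. The 7 mesothelial and surface epithelial markers went from 3.41 and 5.57 TPM to 34.7 and 19.3 TPM. In that list Lrrn4 rose from 0.96 to 14.7 TPM (limma adjusted p = 0.00416) and Krt8 from 2.34 to 9.18 TPM (limma adjusted p = 0.00993), while Upk3b was at no more than 0.29 TPM in either group. Lrrn4, unlike Krt8, was not at 1 TPM or more in both controls. The part of other cells in the PRC1 values was not tested.

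In the Eed experiment none of 23 tested markers of other cells was called by limma at either stage, where 0.113% and 0.12% of all genes were called higher. At an unadjusted p under 0.05 there were 5 (21.7%) in non-growing and 4 (17.4%) in growing oocytes, against 16.4% and 9.94% of all genes. For Cd40 in growing oocytes, the immune list summed to 27.6 to 27.8 TPM in controls and to 18.5 to 23.9 TPM in PRC2 cKO, where Ptprc was at no more than 0.03 TPM and Tyrobp was listed at 0. For Pdpn, the lymphatic endothelial list summed to 9.96 to 10.4 TPM in growing controls and 8.98 to 11.8 TPM in growing PRC2 cKO. The mesothelial list was at 2.99 to 4.60 TPM and at 5.67 to 10.7 TPM in the same groups, and its part in the Pdpn value was not tested. In such bulk samples, fewer cells of a type and less RNA per cell cannot be told apart.

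Partners and relatives were read from lists that leave the 7 genes out. In PRC2 cKO oocytes of either stage no partner gene was called on the lists for CD40 signalling, interferon response, podoplanin partners, pentose phosphate enzymes, radial spokes or FG nucleoporins, by limma at an adjusted p of 0.05. Of the 65 tested genes of these 6 lists, 12 (18.5%) in non-growing and 5 (7.69%) in growing oocytes had an unadjusted p under 0.05, near the 16.4% and 9.94% of all genes. The lists were not alike. In non-growing oocytes 5 of the 9 tested pentose phosphate genes (55.6%) had such a p. Their median log2 difference was -0.44 there, against -0.09 over all genes. Of the 9 tested MAGE genes, 1 rose in growing PRC2 cKO, Mageb10-ps, with a log2 difference of 1.71 (limma adjusted p = 0.0460). For the 16 tested genes of the CD40 signalling list, 2 (12.5%) had an unadjusted p under 0.05 in growing oocytes, near the 9.94% of all genes.

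In libraries bearing the PRC1 cKO label, lists around the genes moved to different extents against the 41.3% of all genes called higher. Of 15 tested CD40 signalling genes 6 rose and 1 fell, with Traf6, an adaptor of the receptor, going from 0.38 to 4.58 TPM and Birc3, an inhibitor of apoptosis, falling from 198.8 to 81.1 TPM. Of 10 tested TNF receptor genes 9 rose, Tnfrsf13b among them, from 0.16 to 3.68 TPM. For only 3 of these 10 were both controls at 1 TPM or more, and of those 3 genes 2 rose. Of 8 podoplanin partners 4 rose and 1 fell, where Msn, the cytoskeletal linker moesin, went from 0.125 to 4.65 TPM and Rdx, its relative radixin, from 857 to 424 TPM. With both controls at 1 TPM or more there were 7 partners, of which 3 rose and 1 fell, and for the 14 such CD40 signalling genes the counts were 5 and 1. Traf6, Tnfrsf13b and Msn were under 1 TPM in both controls and passed the filter only through the cKO libraries.

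Of 11 other MAGE genes tested, 9 rose in libraries bearing the PRC1 cKO label and none fell. Mageb16 went from 29.7 to 80.6 TPM (limma adjusted p = 0.0034). Of the 6 of these 11 with both controls at 1 TPM or more, 5 rose. Of 13 interferon response genes 6 rose and 1 fell, and of the 9 with both controls at 1 TPM or more 3 rose and 1 fell. Of 4 other IFITM genes 3 rose, Ifitm3 from 2.81 ± 0.226 to 18.6 ± 1.87 TPM, and Ifitm1 had a log2 difference of 1.13 with an adjusted p of 0.0514 in limma. Ifitm1, at 0.41 and 0.46 TPM in controls, passed the filter only through the cKO libraries. In non-growing PRC2 cKO, where Ifitm2 was higher, Ifitm3 was at 7.86 and 6.60 TPM in controls and 11.4 and 13.8 TPM in cKO (limma adjusted p = 0.157).

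Of 11 other pentose phosphate enzymes 5 rose in libraries bearing the PRC1 cKO label, with Prps1, which makes phosphoribosyl pyrophosphate, going from 11.8 to 70.0 TPM. For 8 of these 11 both controls were at 1 TPM or more, and 2 of those 8 rose. Tktl2, a relative of Tktl1, rose from 0.045 to 1.81 TPM (limma adjusted p = 0.00557), while Tkt, the main transketolase, was at 33.2 and 48.5 TPM with overlapping libraries (limma adjusted p = 0.296). Tktl2 passed the filter only through the cKO libraries, so its call was favoured in advance. Of 13 other radial spoke and cilium genes 7 rose, led by Rsph1, a radial spoke head gene, from 0.45 to 13.7 TPM. Only 8 of these 13 were at 1 TPM or more in both controls and 2 of those rose, and Rsph3a did not pass (123.4 to 139.8 TPM, limma adjusted p = 0.324). Rsph1 was not among these 8 and passed the filter only through the cKO libraries. Of 11 FG nucleoporins 1 rose and 2 fell, so its share called higher was under that of all genes while Nup62cl was near the top, and Nup62 itself was at 47.2 and 87.8 TPM with overlapping libraries (limma adjusted p = 0.161).

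Genes within 100 kb of the 7 were read at each locus. Of 68 such genes 25 were tested in each table. In non-growing PRC2 cKO 0 of them were called by limma at an adjusted p of 0.05, and 9 (36%) had an unadjusted p under 0.05, against 16.4% of all genes. In growing PRC2 cKO 1 rose, Mageb10-ps, none fell, and 3 (12%) had an unadjusted p under 0.05, against 9.94% of all genes. In libraries bearing the PRC1 cKO label 15 of the 25 rose and none fell, where 41.3% of all genes were called higher and 6.45% lower, with a median log2 difference of 1.10 against 0.55 over all genes. Of the 18 at 1 TPM or more in both controls, 12 rose, where 32.2% of such genes did.

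Locus by locus in the second table, at Mageb4 all 4 tested neighbours rose, with log2 differences of 4.17 for Mageb6-ps, 4.05 for Mageb10-ps, 3.07 for Gm41 and 2.31 for Nr0b1, an orphan nuclear receptor. Gm41 and Mageb6-ps, at 0.28 and 0.065 TPM in controls, passed the filter only through the cKO libraries. Around Ifitm2 6 of 8 rose, with Ifitm3, 53599 bases away, at 2.36 and Psmd13, a proteasome subunit 56194 bases away, at 1.40. Near Tktl1 3 of 8 rose, and Flna, an actin crosslinker 14961 bases away, had a difference of 2.09. Rbm41, 8210 bases from Nup62cl, rose by 0.92, and Prdm2, 54436 bases from Pdpn, was at 0.16 (limma adjusted p = 0.523). Tagap1, 6329 bases from Rsph3b, rose by 1.07, and Ncoa5, 20760 bases from Cd40, was at 0.38 (limma adjusted p = 0.374).

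**Figure D4:**
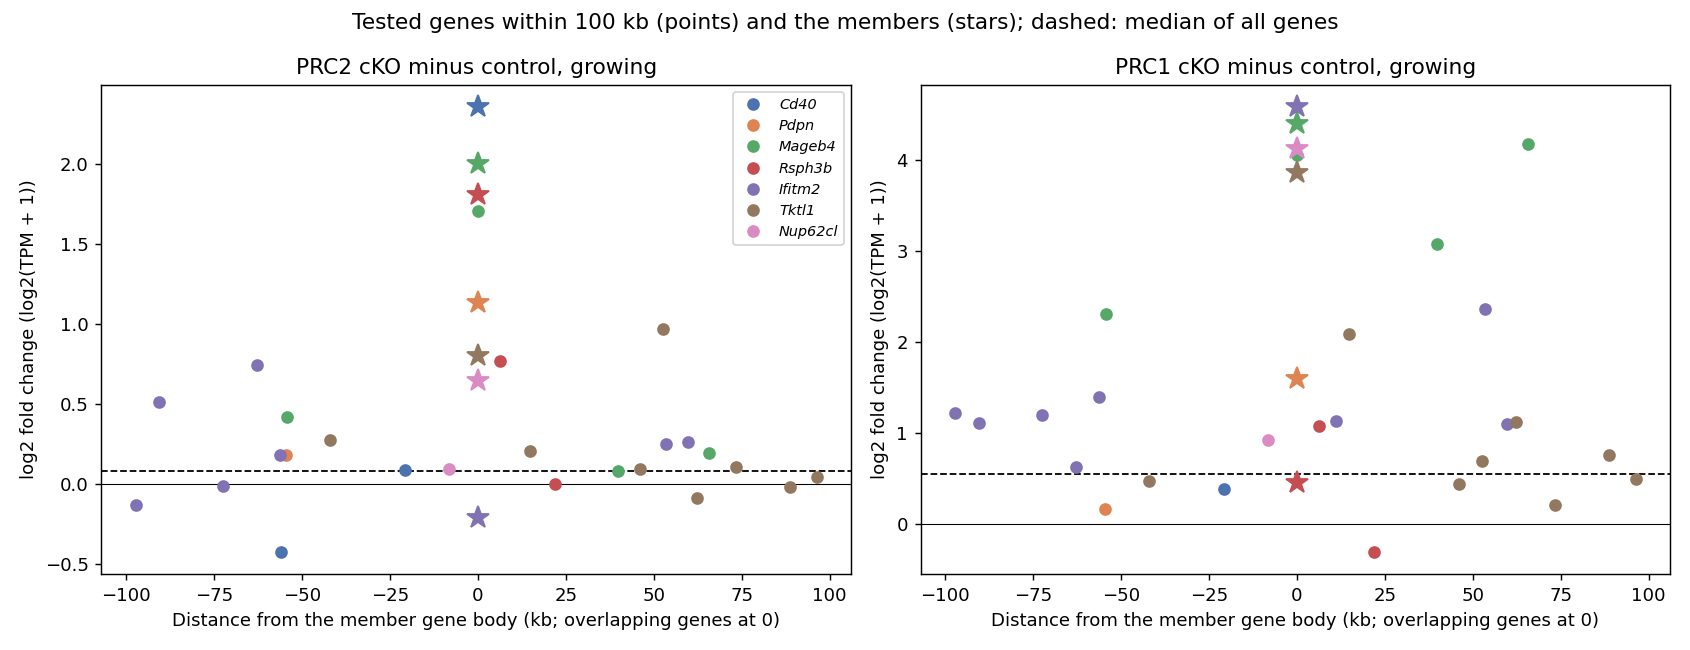
Log2 differences (y axis) of tested genes within 100 kb of a member by distance from its gene body in kb (x axis), in growing PRC2 cKO (left) and in libraries bearing the PRC1 cKO label (right); points are neighbours coloured by member, stars are the members, and the dashed line is the median of all genes. On the left Mageb10-ps is the point at 1.71 near the stars, and on the right the neighbours of Mageb4 lie between 2.31 and 4.17.

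X linkage was shared by 3 of the 7 genes. Of 528 X-linked genes tested in the Eed experiment, 8 (1.52%) were called higher in non-growing and 4 (0.758%) in growing PRC2 cKO, against 0.113% and 0.12% of all genes. These counts hold the picked genes and the Xlr and Rhox families. In libraries bearing the PRC1 cKO label 377 of 606 X-linked genes (62.2%) rose, against 41.3% of all genes, so a call in that table was common for an X-linked gene. Mageb4, Nup62cl and Tktl1 had log2 differences of 3.85 to 4.39 there, against a median of 0.97 over X-linked genes.

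Likeness of pattern was described by Pearson's r of log2(TPM + 1) over the 8 libraries of the Eed experiment, which share stage and genotype differences. Mageb4 was most like Mageb10-ps (r = 0.999) and Perp (0.992), and Rsph3b most like Ccdc158 (0.989) and Zfp362 (0.981). Nup62cl was most like Xlr4c (0.998) and Sgo1 (0.997), Tktl1 like Serpinb1c (0.988) and Xlr3c (0.984), and Ifitm2 like Prss46 (0.991) and Grip1os2 (0.989). Pdpn was most like Pcna-ps2 (0.976) and Csnk2a3 (0.971). Cd40 was most like Mir7035 (0.988) and Cd200 (0.952), and had r between -0.61 and 0.16 with the other 6 genes. Among those 6, r ran from 0.59 for Pdpn with Ifitm2 to 0.98 for Mageb4 with Rsph3b. The same libraries picked the genes, and Cd40 was under 1 TPM in all of them but growing PRC2 cKO. Its low r with the others is therefore a description and not a separate result.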

How the data were processed

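RNA-seq of ovarian oocytes was given as 2 deposited tables of TPM per gene model, 8 libraries in one and 4 in the other. Column-purified total RNA was made into low-input cDNA libraries and read as pairs of 150 bases, per the labels' protocols. The submitters' processing notes name Trim Galore 0.6.10, HISAT2, SAMtools, Subread 2.0.3, RSEM 1.3.3 and the build GRCm38 (mm10). The sources used here do not say which of them gave the TPM values or whether strand was used. TPM made by the authors keeps no depth, so no counting interval can be given. A TPM value is also relative, so a large change in some transcripts moves all others.

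Genes at 1 TPM or more in at least 2 libraries were kept, and log2(TPM + 1) values were tested within each table by limma 3.58.1 (R 4.3.3) with a trended empirical Bayes prior and Benjamini-Hochberg adjustment over all genes tested, at 0.05. All 4 PRC2 groups entered 1 fit and both PRC1 groups another, so groups share an estimate of the spread, with 2 libraries each. The fit was tested on simulated data. A fold change on this scale understates the change of low genes. Ratios of means are of TPM itself.

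Groups came from the labels. Replicate numbers were not used as pairs, since no label ties equal numbers together. The correlation of deviations between equal numbers was 0.0577, -0.0297 and -0.268 in the 3 comparisons.

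The 7 genes and all gene lists were chosen with earlier results of these data known. Genes named in the text are the 7, Eed, Rnf2 and Ring1, list and family genes with an adjusted p under 0.05 (at most 4 per comparison, by smallest p), paralogs, nearest tested neighbours, and the 2 named genes with the highest r to each member. One gene that this rule names is not reported here. Several oocyte and other marker genes and the genes just outside the threshold were named after their values were seen. Alternatives tried were other pseudocounts, no filter, 3 other scalings, no prior trend, a fit of 2 groups only, a replicate block and each library left out. Coordinates matched the GENCODE M21 annotation for 54851 and 54848 gene models. Promoter sequences are RefSeq's on GRCm38.p6. Shared stretches were counted over GENCODE transcripts. Scripts used Python 3.11.15 with pandas 2.3.3.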

Additional observations from a re-analysis of the deposited data

Results flagged for a closer look

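Ifitm2 was singled out because PRC2 cKO went with opposite orders at the 2 stages. Both non-growing cKO libraries (59.2 and 39.7 TPM) were above both non-growing controls (14.99 and 16.9 TPM), and both growing cKO libraries (5.49 and 6.10 TPM) were below both growing controls (6.66 and 7.13 TPM). The effect in growing minus that in non-growing oocytes was -1.77 on the log2(TPM + 1) scale (SE 0.28). The difference was not tested, because its non-growing part picked the gene.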

How the results depend on the processing

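Of 310 values of the members under alternatives, 231 kept direction and side of the threshold, 72 kept direction but were no longer past it, and 7 changed sign. All 72 were values that had picked a gene. In the comparison that picked it, Cd40 stayed past the threshold in 14 of 17 alternatives and in each of 8 that left out a library, Tktl1 in 9 of 17, Pdpn in 6, Ifitm2 and Mageb4 in 5, and Rsph3b and Nup62cl in 4. The 6 sign changes in non-growing oocytes were near 0, and the 1 in PRC1 was not. Cd40 in non-growing oocytes was at -0.0183 with a pseudocount of 0.1, and at -0.0217 without control replicate 2 and -0.0681 without cKO replicate 2, within a range of -0.0681 to 0.0783 with 1 library left out. Rsph3b there was at 0.062 (trimmed-mean scaling), 0.0458 (quantile normalization) and 0.00673 (without control replicate 2), within a range of -0.138 to 0.00673 with 1 library left out. In PRC1 Rsph3b was at -0.283 with trimmed-mean scaling, against 0.44 in the main fit, so its direction there depended on the scaling. Counts of genes called over the table moved more. The 44 in non-growing oocytes became 87 with a pseudocount of 5, 91 with no filter, 26 with trimmed-mean scaling and 10 in a fit of 2 groups, and ran from 14 to 45 with 1 library left out, lowest without non-growing control replicate 2 (14) or 1 (23). They were 27 without non-growing cKO replicate 2, growing control replicate 1 or growing control replicate 2. The 24 in growing oocytes became 50 with no filter, 12 without a prior trend and 1 in a fit of 2 groups, and ran from 10 to 35 with 1 library left out. They were 10 without either non-growing control and 13 without either non-growing cKO. The 7140 in PRC1 ran from 2953 (without control replicate 1) to 6390, with 4223 without control replicate 2 and 4400 without cKO replicate 1. With a replicate block the counts were 4 in non-growing, 3 in growing and 5094 in PRC1 oocytes. The numbers are not known to pair the samples, so a call lost under that block is not read as a weaker effect. The cause of these shifts was not tested. With no depth in the files, the level below which a gene such as Cd40 could be told from 0 is unknown.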
